A study of Homo sapiens with 9 samples.

Results

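The genes described here encode the chaperones, folding enzymes, degradation factors, stress sensors and export factors of the endoplasmic reticulum (ER), 40 genes chosen by name and all found, in 1 row each, among 58735 genes measured. Their messenger RNA was compared in the MDA-MB-231 line, which is labelled wild type and derives from a human breast carcinoma that lacks oestrogen receptor. Cultures received medium taken from senescent cells of the same line (TIS CM), where senescence had been brought on by nocodazole, a microtubule poison, at 100 ng/ml for 72 h, medium taken from cells that were not senescent (Cont CM), or plain medium (No CM), with 3 libraries in each group. For the exposure itself the sources conflict, with 72 h in the sample labels and 48 h in the design text. All libraries come from 1 cell line, donor and recipient cells alike, and whether nocodazole was removed before the medium was collected is not stated there. Replicates carry numbers, but no source calls them separate cultures. The spread behind every p-value is therefore that of 3 libraries a group and may be technical.

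Secreted and membrane proteins enter the ER through the SEC61 channel and are folded there by HSPA5 (BiP), an Hsp70 chaperone, by HSP90B1, by the lectin chaperones CALR and CANX, and by protein disulfide isomerases. When unfolded proteins build up, the membrane sensors ATF6, ERN1 (IRE1) and EIF2AK3 (PERK) start the unfolded protein response. ERN1 splices the messenger RNA of the transcription factor XBP1, and XBP1 and cleaved ATF6 raise the genes of chaperones and of ER-associated degradation (ERAD), while EIF2AK3 slows translation and leads to ATF4.

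The libraries held 32636708 to 39189036 fragments on genes. Of the markers of the line, VIM, CD44, ZEB1, CAV1 and AXL were present in every library, with a sum of 842 to 905 FPKM (fragments per kilobase of gene, scaled to library depth). Of 5 genes listed as low in this line, ESR1 and PGR were at most 0.00801 and 0.00539 FPKM and CDH1 at most 1.23 FPKM, but EPCAM reached 7.58 to 10.1 FPKM and GATA3 4.67 to 6.72 FPKM. Fibroblast markers summed to at most 2.76 FPKM over 5 genes, with DCN at 0. Markers of immune cells summed to at most 0.68 FPKM over 4 genes and those of endothelium to at most 0.612 FPKM over 3. The library labelled Cont CM replicate 1 stood apart in the ER genes, as described below, so the calls and medians of the ER genes that use Cont CM are also given without it. Across genes, its deviation from the other 2 Cont CM libraries correlated with the GC content of transcripts (r = 0.19, a description over genes that share their libraries), and that of Cont CM replicate 2 did so in the other direction (r = -0.28). A gene was tested where its mean over the 9 libraries was at least 0.5 FPKM, which left 13912 genes. A gene was called where limma, fitted to log2(FPKM + 0.5) over all 9 libraries, gave an adjusted p under 0.05.

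Of the 40 ER genes, 39 were tested. DERL3, a derlin of the ERAD machinery, was below the filter at 0.342, 0.226 and 0.271 FPKM in TIS CM, 0.168, 0.169 and 0.128 FPKM in Cont CM, and 0.35, 0.285 and 0.368 FPKM in No CM, on 19 to 48 fragments a library. Averaged over the 9 libraries, the level per length was highest for CALR at 579 FPKM, followed by HSPA5 at 264, HSP90B1 at 247 and CANX at 224 FPKM. The disulfide isomerases P4HB, PDIA4 and PDIA3 and the prolyl isomerase PPIB lay between 104 and 184 FPKM, where PDIA3 has pseudogene copies with a summed level of 7.05 FPKM that could share its reads. The sensors were far lower, ATF6 at 13.9, EIF2AK3 at 4.36 and ERN1 at 2.49 FPKM, and XBP1 stood at 27.8 FPKM. The summed level of the 40 genes was 2509 ± 63 FPKM in TIS CM, 2292 ± 250 in Cont CM and 2618 ± 81.4 in No CM (SD, n = 3). By library the sum was 2563, 2525 and 2440 FPKM in TIS CM, 2004, 2452 and 2420.0 FPKM in Cont CM, and 2678, 2526 and 2652 FPKM in No CM, so that Cont CM replicate 1 held the lowest sum and the other 8 lay between 2420.0 and 2678 FPKM.

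**Figure D1:**
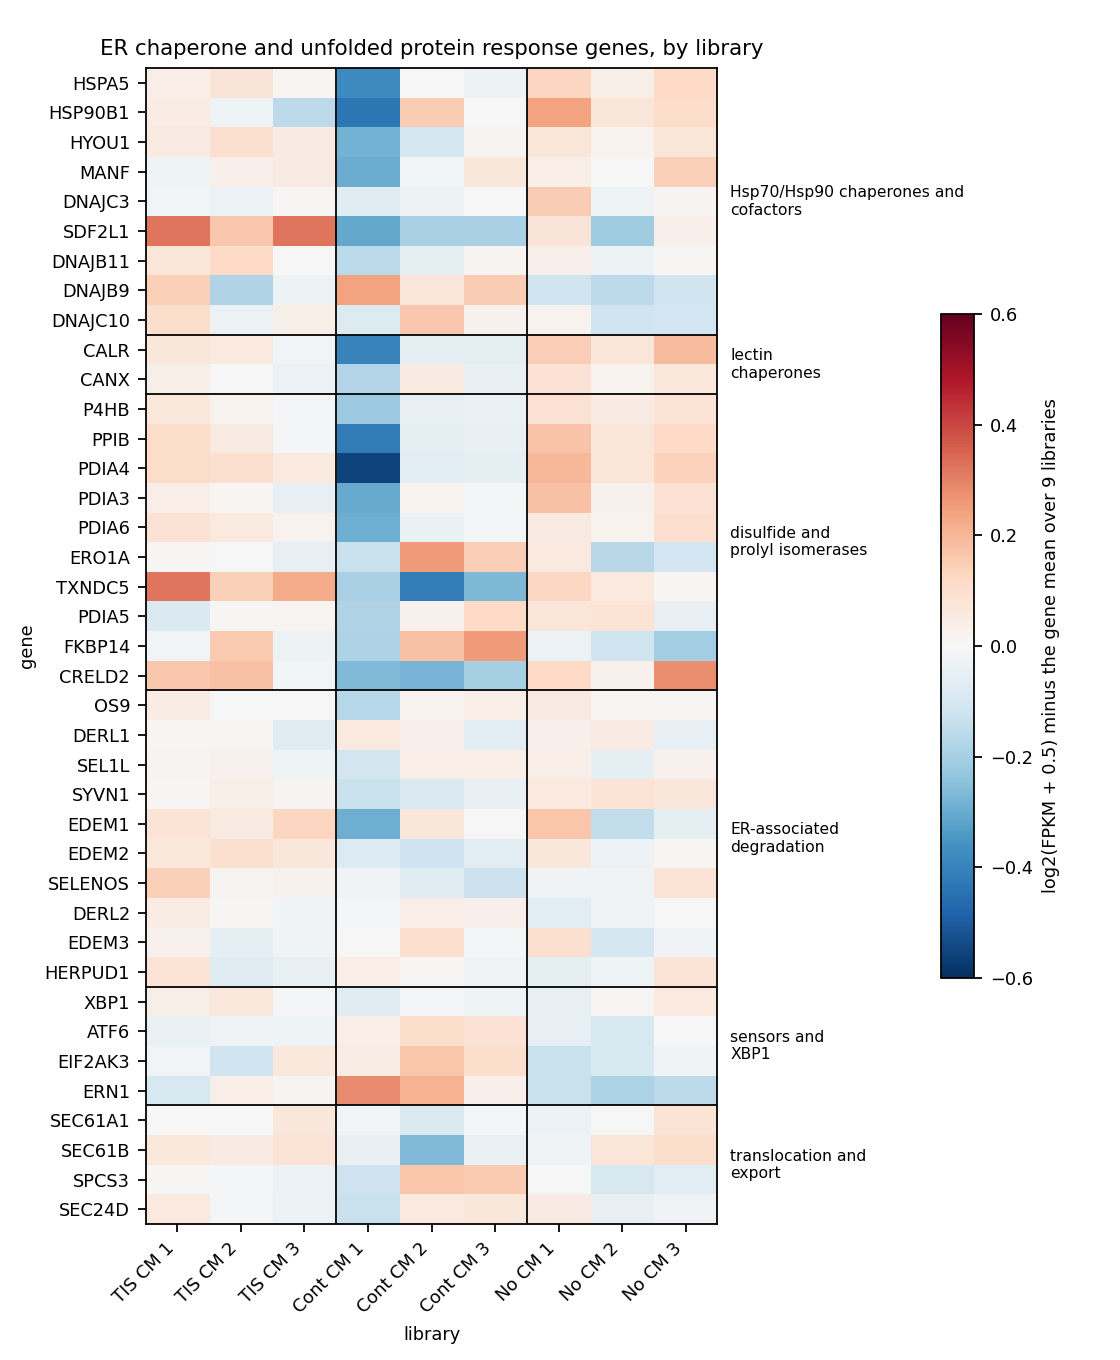
Log2(FPKM + 0.5) of 39 ER genes minus each gene's mean over 9 libraries, with genes in rows by role and libraries in columns by group. Cont CM replicate 1 is the library with most of the blue cells among the chaperones and disulfide isomerases, while SDF2L1 and TXNDC5 are red in all 3 TIS CM libraries.

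The first comparison asks what the medium of senescent cells adds to that of non-senescent cells. In TIS CM against Cont CM the ER genes that passed the test were all higher, and they were not the abundant chaperones. They were TXNDC5, a disulfide isomerase, SDF2L1, a cofactor that keeps HSPA5 working with its DnaJ partners, CRELD2, a secreted ER stress protein with disulfide isomerase activity, and EDEM2, which trims mannose from misfolded glycoproteins ahead of degradation. Limma called 4 of 39 higher, 10.3%, where 2.9% of all tested genes were called higher, and 0 lower, where 1.57% were. At an unadjusted p under 0.05, 14 ER genes were higher and 3 lower, beside 12.8% and 10.6% of all tested genes. Voom on recovered fragments called 3 higher and 0 lower, beside 4.49% and 3.31%. The median log2 fold change over the 39 genes was 0.06, against 0.00 over all tested genes. In bulk libraries, fewer cells with a transcript and less of it per cell cannot be told apart.

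TXNDC5 (chromosome 6, 7881517 to 7910814) stood at 8.16, 7.15 and 7.59 FPKM in TIS CM, 5.56, 4.71 and 5.26 FPKM in Cont CM, and 7.07, 6.71 and 6.49 FPKM in No CM. Every TIS CM library lay above every library of the other groups, and it was 1.43-fold higher in TIS CM than in Cont CM (log2 fold change 0.52, SE 0.07, limma adjusted p = 0.0113). The gene overlaps the read-through gene BLOC1S5-TXNDC5, whose mean was 0.000968 FPKM, and how shared reads were divided is not given, so its level is uncertain. The call was lost without TIS CM replicate 1 (0.0606), with adjusted p in the parentheses, and was kept in the other 8 omissions of a library. SDF2L1 (chromosome 22, 21642261 to 21644298) stood at 14.2, 12.6 and 14.1 FPKM in TIS CM, 8.99, 9.75 and 9.77 FPKM in Cont CM, and 11.9, 9.62 and 11.5 FPKM in No CM. Again the TIS CM libraries lay above all others, with a 1.41-fold higher level than in Cont CM (log2 fold change 0.50, SE 0.08, limma adjusted p = 0.017). Its adjusted p missed the threshold without TIS CM replicates 1, 2 and 3 (0.075, 0.0576 and 0.0698) and Cont CM replicate 2 (0.0515). In the omissions of a library the log2 fold change of SDF2L1 lay between 0.46 and 0.55. With the GC and length trend of each library removed it was 0.38 (limma adjusted p = 0.0938), while TXNDC5 kept its call.

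CRELD2 (chromosome 22, 49918167 to 49927540) stood at 3.07, 3.11 and 2.66 FPKM in TIS CM, 2.15, 2.13 and 2.28 FPKM in Cont CM, and 2.97, 2.76 and 3.37 FPKM in No CM. Here it was the Cont CM libraries that were low, below all 6 others, and CRELD2 was 1.28-fold higher in TIS CM than in Cont CM (log2 fold change 0.36, SE 0.08, limma adjusted p = 0.0444). The call was lost in all omissions of 1 library but that of No CM replicate 3, namely without TIS CM replicates 1, 2 and 3 (0.142, 0.141 and 0.0714), Cont CM replicates 1, 2 and 3 (0.0566, 0.112 and 0.0684) and No CM replicates 1 and 2 (0.067 and 0.0539), while the log2 fold change stayed between 0.32 and 0.42. EDEM2 (chromosome 20, 35115357 to 35147364) stood at 13, 13.3 and 13.1 FPKM in TIS CM, 11.7, 11.4 and 11.9 FPKM in Cont CM, and 13.1, 12.1 and 12.6 FPKM in No CM. Its Cont CM libraries were also below all 6 others, by 1.12-fold against TIS CM (log2 fold change 0.17, SE 0.04, limma adjusted p = 0.0469). The call was lost without TIS CM replicates 1, 2 and 3 (0.127, 0.149 and 0.127), Cont CM replicates 2 and 3 (0.117 and 0.0705) and No CM replicates 1, 2 and 3 (0.0585, 0.06 and 0.0781), with the log2 fold change between 0.15 and 0.18. These ranges cover the omissions of a library. With the GC and length trend of each library removed, CRELD2 and EDEM2 had log2 fold changes of 0.31 and 0.13 (limma adjusted p of 0.0871 and 0.143). CRELD2 overlaps the gene ALG12 on the opposite strand, and whether counting used strand is not given.

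The chaperones themselves did not pass. HSPA5 stood at 271, 277 and 265 FPKM in TIS CM, against 201, 262 and 258 FPKM in Cont CM, without overlap but with log2 fold change 0.18, SE 0.09, limma adjusted p = 0.261. HSP90B1 stood at 253, 241 and 220.1 FPKM in TIS CM, against 181, 273 and 245 FPKM in Cont CM, with overlap and log2 fold change 0.05, SE 0.13, limma adjusted p = 0.859. In both genes Cont CM replicate 1 was the lowest of the 9 libraries and the other Cont CM libraries were near those of TIS CM. Among the other 7 genes of the Hsp70 and Hsp90 group, the log2 fold changes were 0.19 for HYOU1, an Hsp70-like exchange factor, 0.10 for MANF, a secreted factor that binds HSPA5, and -0.18 for DNAJB9, a DnaJ cofactor that restrains ERN1. The lectin chaperones CALR and CANX had 0.21 and 0.05, with limma adjusted p of 0.201 and 0.622. PDIA4, a disulfide isomerase, had the largest log2 fold change of the genes that did not pass, 0.31, with SE 0.12 (limma adjusted p = 0.149). Of the 10 disulfide and prolyl isomerases and their partners, 7 had fold changes above 0, with ERO1A, the oxidase that recharges disulfide isomerases, at -0.10.

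The ERAD genes varied little, with log2 fold changes between -0.05 for EDEM3 and 0.17 for EDEM2 in 10 tested genes and a median of 0.03. The fold changes of the 3 sensors were below 0 and 0 of them passed. ERN1 stood at 2.28, 2.55 and 2.51 FPKM in TIS CM, against 3.11, 2.93 and 2.53 FPKM in Cont CM (log2 fold change -0.19, SE 0.08, limma adjusted p = 0.182), ATF6 at 13.5, 13.7 and 13.6 FPKM in TIS CM, against 14.3, 15 and 14.8 FPKM in Cont CM (log2 fold change -0.11, SE 0.04, limma adjusted p = 0.134), and EIF2AK3 at 4.3, 3.96 and 4.57 FPKM in TIS CM, against 4.5, 4.94 and 4.71 FPKM in Cont CM (log2 fold change -0.13, SE 0.06, limma adjusted p = 0.246). Only for ATF6 did the 3 TIS CM libraries lie below all 3 Cont CM libraries. XBP1 stood at 28.5, 29 and 27.7 FPKM in TIS CM, against 26.4, 27.6 and 27.2 FPKM in Cont CM and did not pass (log2 fold change 0.07, SE 0.04, limma adjusted p = 0.341). These are levels of whole genes, so the spliced and unspliced forms of XBP1 cannot be told apart. Among the genes of translocation and export, SEC61A1, SEC61B, the signal peptidase subunit SPCS3 and the vesicle coat protein SEC24D had log2 fold changes from -0.08 to 0.18 and 0 of 4 passed, and in SEC61A1 and SEC61B every TIS CM library lay above every Cont CM library. Over all 39 ER genes, 16 were without overlap higher, 41%, against 15% of tested genes, and 1 was lower, against 13.6%.

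**Figure D2:**
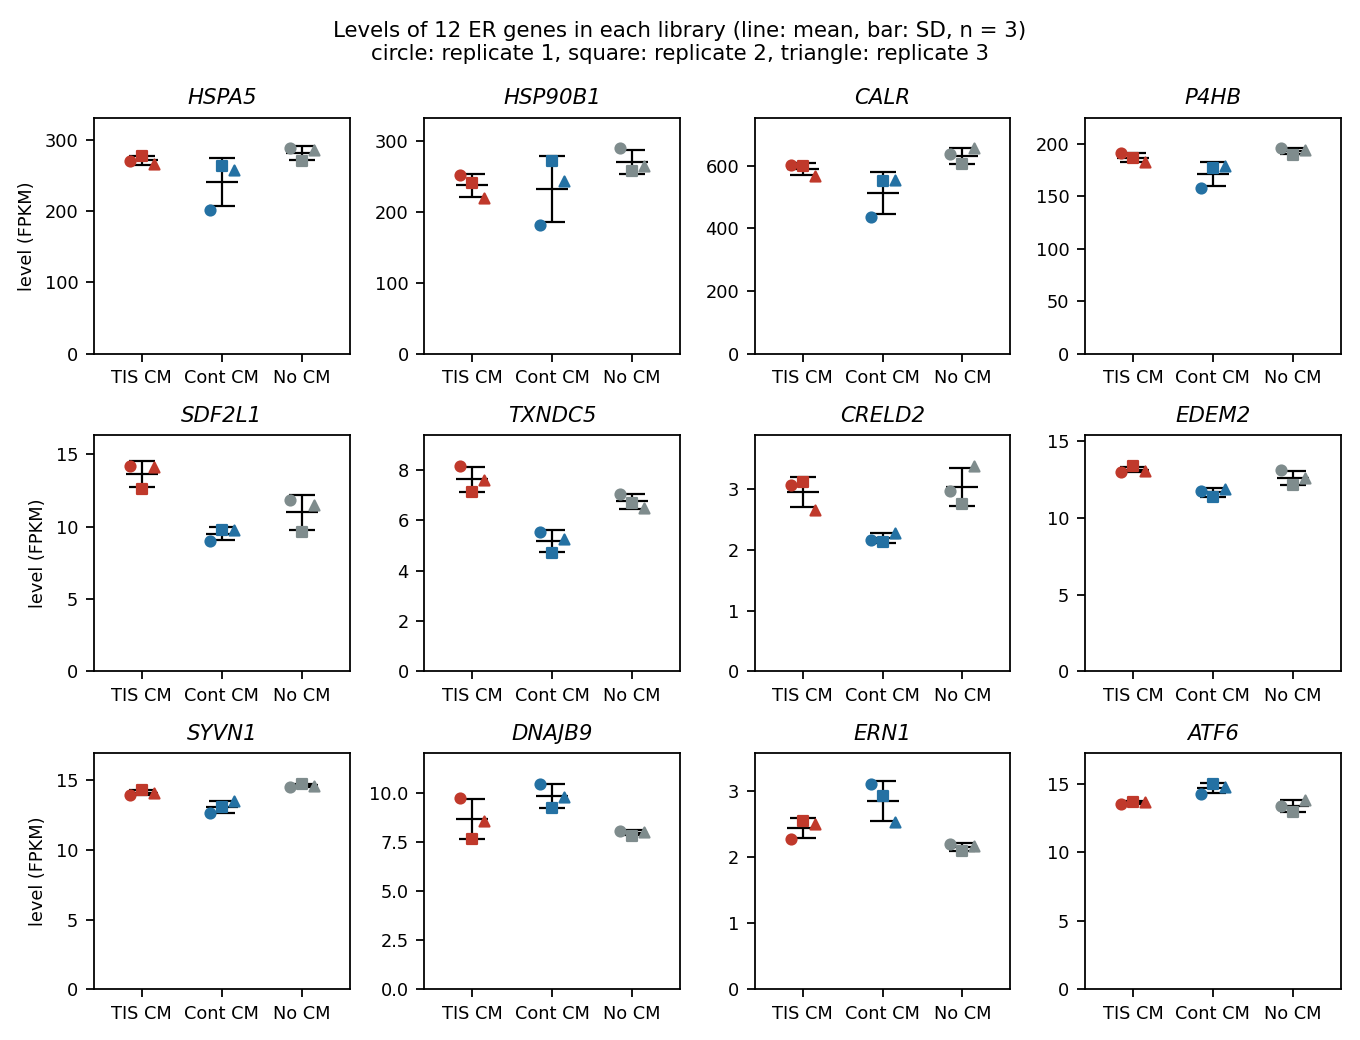
Level in FPKM (vertical axes, from 0) of 12 ER genes in each library of TIS CM, Cont CM and No CM, with the mean and SD of 3 libraries. SDF2L1 and TXNDC5 are highest in TIS CM, CRELD2 and EDEM2 are lowest in Cont CM, and in HSPA5, HSP90B1, CALR and P4HB the circle of Cont CM replicate 1 lies below all other points.

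Promoters are shown for the 5 ER genes with the largest fold change between TIS CM and Cont CM among those called in any comparison, and for HSPA5, since ER stress genes are known to share promoter elements read by ATF6, XBP1 and their partner NF-Y. The sequences are the 250 bases before the RefSeq start on GRCh38.p14, 5′ to 3′ along the gene, with the letters of a searched motif in capitals. The motifs were the ER stress element ERSE (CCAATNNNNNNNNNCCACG), ERSE-II (ATTGG, any 1 base, CCACG) and the core of the unfolded protein response element (TGACGTG), on both strands.
TXNDC5 (chr6:7910078-7910327, minus strand): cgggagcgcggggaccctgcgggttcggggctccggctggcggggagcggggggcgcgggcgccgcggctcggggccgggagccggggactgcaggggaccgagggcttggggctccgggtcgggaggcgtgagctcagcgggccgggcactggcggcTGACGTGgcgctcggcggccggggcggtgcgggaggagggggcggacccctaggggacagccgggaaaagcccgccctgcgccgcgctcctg
SDF2L1 (chr22:21642052-21642301, plus strand): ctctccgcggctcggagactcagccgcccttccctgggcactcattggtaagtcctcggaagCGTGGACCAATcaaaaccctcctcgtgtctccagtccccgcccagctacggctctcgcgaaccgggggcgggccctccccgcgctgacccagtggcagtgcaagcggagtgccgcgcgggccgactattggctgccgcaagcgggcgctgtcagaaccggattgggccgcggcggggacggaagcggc
CRELD2 (chr22:49918384-49918633, plus strand): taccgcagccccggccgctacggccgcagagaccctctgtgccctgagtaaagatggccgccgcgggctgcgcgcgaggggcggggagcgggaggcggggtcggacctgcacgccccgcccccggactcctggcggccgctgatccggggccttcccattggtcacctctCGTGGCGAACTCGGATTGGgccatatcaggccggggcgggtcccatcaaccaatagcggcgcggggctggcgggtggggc
CALR (chr19:12938359-12938608, plus strand): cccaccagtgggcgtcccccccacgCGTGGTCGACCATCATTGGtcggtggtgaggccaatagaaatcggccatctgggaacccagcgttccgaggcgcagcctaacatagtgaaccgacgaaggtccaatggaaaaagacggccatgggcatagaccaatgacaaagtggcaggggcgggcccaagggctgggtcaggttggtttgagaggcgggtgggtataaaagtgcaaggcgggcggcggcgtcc
ERN1 (chr17:64130145-64130394, minus strand): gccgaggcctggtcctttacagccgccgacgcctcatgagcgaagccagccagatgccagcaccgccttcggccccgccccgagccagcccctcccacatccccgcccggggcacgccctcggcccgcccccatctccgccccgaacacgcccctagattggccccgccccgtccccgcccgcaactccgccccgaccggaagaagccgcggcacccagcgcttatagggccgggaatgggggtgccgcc
HSPA5 (chr9:125241344-125241593, minus strand): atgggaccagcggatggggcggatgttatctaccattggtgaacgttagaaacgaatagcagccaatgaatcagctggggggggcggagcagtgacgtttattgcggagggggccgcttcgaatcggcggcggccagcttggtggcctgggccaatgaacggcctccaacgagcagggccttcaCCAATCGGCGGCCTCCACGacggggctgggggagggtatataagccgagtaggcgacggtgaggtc
The capitals mark a UPRE core in TXNDC5, at 1 of its 2 starts in the table, an ERSE-II on the opposite strand in SDF2L1, an ERSE on the opposite strand in CRELD2 and CALR, and an ERSE on the strand of the gene in HSPA5, from 66 to 48 bases before the start. The ERN1 window held none of these letters.

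Promoters were matched for 35 of the 40 ER genes, counting a gene as having a motif where any of its starts did. ERSE was found in 7 of them, 20%, against 0.0916% of 27305 genes in the table. The 7 were CALR, CANX, CRELD2, HSP90B1, HSPA5, PDIA6 and XBP1. ERSE-II was found in HERPUD1, HYOU1 and SDF2L1, 8.57% against 0.0659% of all genes, and the UPRE core in DNAJC10, HYOU1 and TXNDC5, 8.57% against 2.05%. In HYOU1 a UPRE core overlapped an ERSE-II. The 40 genes were chosen by name, and ER stress genes are known to share these elements. The shares are therefore no test of an excess. The 12 genes with any motif had a median log2 fold change of 0.18 in TIS CM against Cont CM, and the 23 without had 0.05. These medians were 0.07 and -0.01 without Cont CM replicate 1. In Cont CM replicate 1 the same genes deviated from the other 2 Cont CM libraries by a median of -0.18 with a motif and -0.09 without, and the part of that library in the difference was not tested. In TIS CM against Cont CM the median log2 fold change was 0.17 over the 11 ER genes at 50 FPKM or more. Over all 925 tested genes at that level it was 0.05. Below that level it was 0.01 over the 28 ER genes and 0.00 over all tested genes. CALR, CANX, HSP90B1, HSPA5 and PDIA6 have a motif and are among the 11. The part of level in the difference between genes with and without a motif was not tested. A match of letters is a description of the sequence and not of binding.

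In Cont CM replicate 1 the level was lower for 9 of the 11 ER genes with a mean of at least 50 FPKM. Of all 925 tested genes at that level, 60% were lower. Set against the mean of the other 2 Cont CM libraries on the scale log2(FPKM + 0.5), HSP90B1 was at -0.51, PDIA4 at -0.50, PPIB at -0.37, HSPA5 at -0.37 and CALR at -0.34, at percentiles from 2.39 to 5.55 of all tested genes. PDIA3 was at -0.31, PDIA6 at -0.27, CANX at -0.18 and P4HB at -0.17, at percentiles from 7.02 to 17.7, and SEC61A1 and SEC61B were above 0 at 0.03 and 0.11. In FPKM, PDIA4 was 75 in this library and 106 in each of Cont CM replicates 2 and 3, and between 115 and 127 in the 6 libraries of TIS CM and No CM. Of the 39 ER genes, 30 lay below the mean of the other 2 Cont CM libraries, and 13 were in the lowest 10% of all tested genes. The median was -0.15, against -0.01 over all tested genes, of which 51.8% lay below 0. In each of the other 8 libraries the median over the ER genes lay between -0.06 and 0.08, and between 0 and 3 of them were in the lowest 10%.

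By role, the deviation in Cont CM replicate 1 had a median of -0.29 over the 10 disulfide and prolyl isomerases and their partners, -0.26 over the lectin chaperones and -0.17 over the Hsp70 and Hsp90 group. Over the ERAD genes, the sensors with XBP1, and the genes of translocation and export the median was -0.05, -0.05 and -0.08. Among folding factors, TXNDC5 at 0.15 and DNAJB9 at 0.13 were above 0. The smallest decreases among them were CRELD2 at -0.03, DNAJC3 at -0.06 and SDF2L1 at -0.11. ERN1 had the highest deviation of the ER genes in this library at 0.17. The 11 ER genes with a mean of at least 50 FPKM had a median of -0.31 and all 925 tested genes at that level had -0.04. The ER genes had a median GC content of 45.8% and all tested genes 48.5%. With the trends of each library on GC and on length taken out, the median was -0.13 over the ER genes, and it was -0.13 as well after quantile normalization and after scaling to equal library sums.

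**Figure D3:**
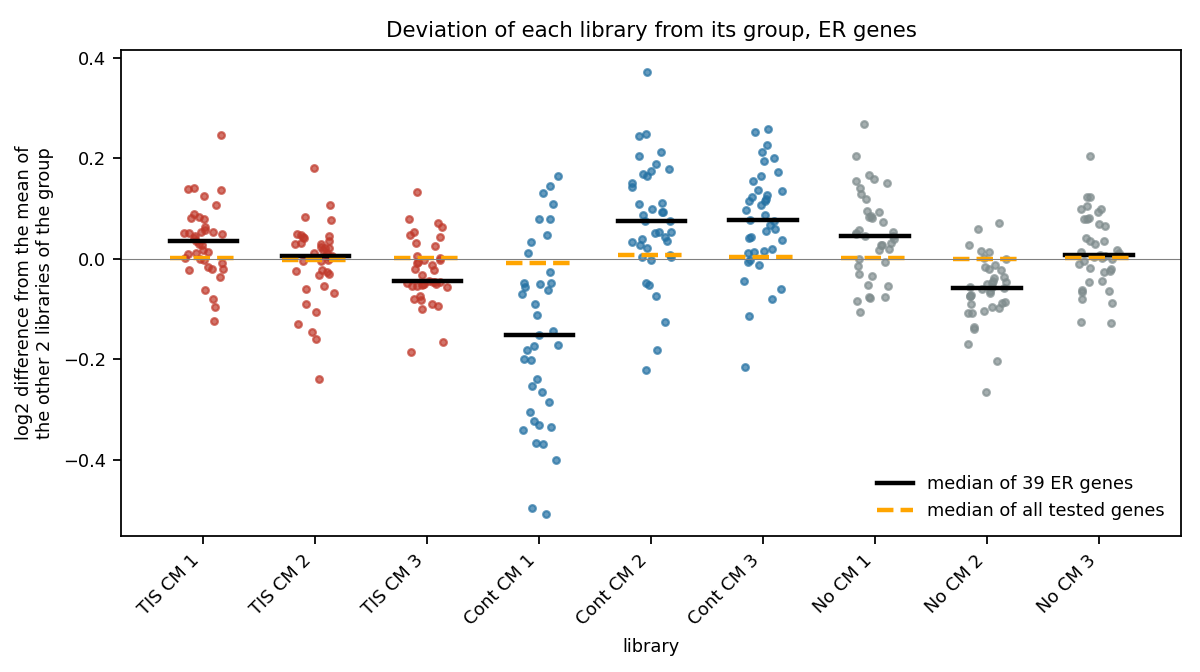
Difference of each library from the mean of the other 2 libraries of its group on the log2(FPKM + 0.5) scale (vertical axis), 1 point for each of 39 ER genes, with libraries on the horizontal axis. The median of the ER genes is -0.15 in Cont CM replicate 1 and between -0.06 and 0.08 in the other 8 libraries.

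Without Cont CM replicate 1 the median log2 fold change in TIS CM against Cont CM was -0.00, with 18 of 39 above 0, against 0.06 and 27 of 39 with all libraries. HSPA5 had log2 fold change 0.06, limma adjusted p = 0.376, CALR log2 fold change 0.09, limma adjusted p = 0.252 and HSP90B1 log2 fold change -0.12, limma adjusted p = 0.345. TXNDC5 (log2 fold change 0.57, limma adjusted p = 0.00818), SDF2L1 (log2 fold change 0.46, limma adjusted p = 0.0237) and EDEM2 (log2 fold change 0.17, limma adjusted p = 0.0475) were still called, and CRELD2 was not (log2 fold change 0.35, limma adjusted p = 0.0566). SPCS3 was called lower (log2 fold change -0.17, limma adjusted p = 0.0321), with an SE of 0.07 with all libraries and 0.04 here. The library was left out because ER genes were low in it, so these adjusted p values describe the remaining libraries only. The calls without Cont CM replicate 1 were 3 of 39 higher and 1 lower, where 4.85% and 2.94% of all tested genes were called. With 2 Cont CM libraries, 16 ER genes were without overlap higher and 7 lower, against 23.5% and 22.9% of tested genes.

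**Figure D4:**
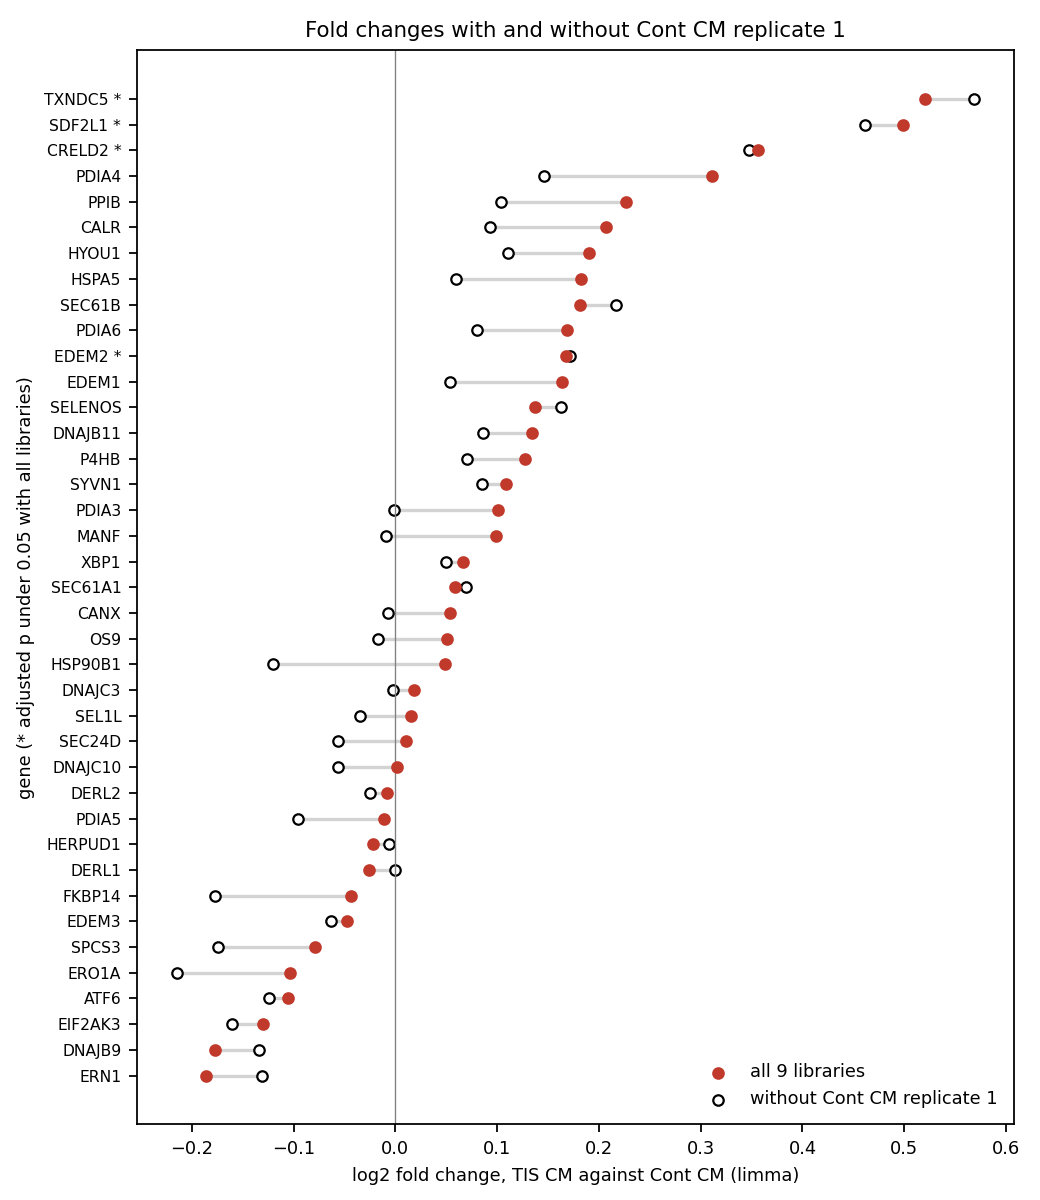
Log2 fold change of 39 ER genes in TIS CM against Cont CM (horizontal axis) from all 9 libraries (filled) and without Cont CM replicate 1 (open), with a grey line joining the points of a gene. HSP90B1, PDIA4, HSPA5, PPIB and CALR move left, while TXNDC5, SDF2L1, CRELD2 and EDEM2 stay between 0.17 and 0.57.

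The second comparison sets medium from non-senescent cells against plain medium. In Cont CM against No CM, limma called 5 of 39 ER genes lower, 12.8%, where 8.56% of all tested genes were, and 3 higher, 7.69%, close to the 7.77% of all tested genes. The genes called lower were CALR, P4HB, TXNDC5, CRELD2 and SYVN1, and those called higher were DNAJB9, ATF6 and ERN1. At an unadjusted p under 0.05, 14 ER genes were lower and 4 higher, beside 16.0% and 15.4% of all tested genes. Voom called 8 lower and 3 higher, beside 10.1% and 9.29%. The median log2 fold change over the 39 genes was -0.07, against -0.00 over all tested genes, and -0.03 without Cont CM replicate 1. Groups did not overlap for 14 lower genes, 35.9% against 16.8% of tested genes, and for 4 higher genes, 10.3% against 16.6%. Both this comparison and the previous one use the Cont CM libraries, so that their values are not independent.

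TXNDC5 stood at 5.56, 4.71 and 5.26 FPKM in Cont CM, against 7.07, 6.71 and 6.49 FPKM in No CM, without overlap (log2 fold change -0.36, SE 0.07, limma adjusted p = 0.00955), and kept its call without any 1 of the 9 libraries. CRELD2 stood at 2.15, 2.13 and 2.28 FPKM in Cont CM, against 2.97, 2.76 and 3.37 FPKM in No CM, also without overlap (log2 fold change -0.39, SE 0.08, limma adjusted p = 0.0133), and lost its call only without No CM replicate 3 (0.0501). Without Cont CM replicate 1 the fold changes of TXNDC5 and CRELD2 were -0.40 and -0.38 on the log2 scale. CALR (chromosome 19, 12938578 to 12944489), which also buffers calcium, stood at 436, 552 and 553 FPKM in Cont CM, against 637, 604 and 655 FPKM in No CM (log2 fold change -0.31, SE 0.09, limma adjusted p = 0.0458). All 3 Cont CM libraries lay below those of No CM, replicate 1 by the most, and the fold change was smaller without that library (log2 fold change -0.19, limma adjusted p = 0.0259). CALR overlaps the gene AC092069.1, with a mean of 21.5 FPKM. With the GC and length trend of each library removed, the log2 fold change of CALR was -0.27 (limma adjusted p = 0.0838). TXNDC5 and CRELD2 kept their calls in that setting. The CALR call was lost without TIS CM replicates 1, 2 and 3 (0.069, 0.0713 and 0.0677) and No CM replicates 1, 2 and 3 (0.105, 0.0752 and 0.138).

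P4HB (chromosome 17, 81843159 to 81860694), a disulfide isomerase that is also a subunit of collagen prolyl hydroxylase, stood at 158, 177 and 179 FPKM in Cont CM, against 196, 189.8 and 194 FPKM in No CM (log2 fold change -0.18, SE 0.05, limma adjusted p = 0.0442). The call was lost without TIS CM replicates 1, 2 and 3 (0.0644, 0.0722 and 0.0671), Cont CM replicate 2 (0.0528) and No CM replicates 1, 2 and 3 (0.111, 0.0834 and 0.122). With the GC and length trend of each library removed, the log2 fold change of P4HB was -0.09 (limma adjusted p = 0.316). P4HB overlaps an antisense gene, AC145207.3, with a mean of 54.3 FPKM, so that its reads may not be separable. SYVN1 (chromosome 11, 65121780 to 65134533), the ubiquitin ligase of ERAD known as HRD1, stood at 12.6, 13.1 and 13.5 FPKM in Cont CM, against 14.5, 14.7 and 14.6 FPKM in No CM (log2 fold change -0.16, SE 0.04, limma adjusted p = 0.0179), 1.12-fold lower. That call was lost without No CM replicates 2 and 3 (0.0569 and 0.0632) and with only the 2 groups fitted (0.0647). With the GC and length trend of each library removed, the log2 fold change of SYVN1 was -0.09 (limma adjusted p = 0.104). SYVN1 overlaps the genes FAU and MRPL49, with mean levels of 84.3 and 37.6 FPKM.

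DNAJB9 (chromosome 7, 108569568 to 108574850), which overlaps the genes PNPLA8 and THAP5, stood at 10.5, 9.25 and 9.81 FPKM in Cont CM, against 8.06, 7.83 and 8.05 FPKM in No CM, higher in every Cont CM library (log2 fold change 0.29, SE 0.08, limma adjusted p = 0.037), and lost its call without TIS CM replicate 3 (0.0585), Cont CM replicates 1 and 3 (0.0742 and 0.0808) and No CM replicates 1, 2 and 3 (0.0826, 0.0994 and 0.0966). ERN1 (chromosome 17, 64039142 to 64130819) stood at 3.11, 2.93 and 2.53 FPKM in Cont CM, against 2.21, 2.1 and 2.17 FPKM in No CM, also higher in every library (log2 fold change 0.33, SE 0.08, limma adjusted p = 0.0191), and lost it without Cont CM replicate 2 (0.0555) and No CM replicates 2 and 3 (0.0601 and 0.0615). ATF6 (chromosome 1, 161766294 to 161964070) stood at 14.3, 15 and 14.8 FPKM in Cont CM, against 13.4, 12.9 and 13.8 FPKM in No CM (log2 fold change 0.13, SE 0.04, limma adjusted p = 0.0458), a fold change of 1.09. Its adjusted p is just under the threshold. The ATF6 call was lost without TIS CM replicates 1, 2 and 3 (0.0721, 0.0761 and 0.0733). Leaving out Cont CM replicate 2 or 3 also lost it (0.113 and 0.107), as did leaving out No CM replicate 1, 2 or 3 (0.105, 0.14 and 0.0642). With the GC and length trend of each library removed, the log2 fold change was 0.06 for ATF6 (limma adjusted p = 0.301). In that setting DNAJB9 had 0.22 (limma adjusted p = 0.101) and ERN1 kept its call. EIF2AK3, at 4.5, 4.94 and 4.71 FPKM in Cont CM, against 3.92, 4.04 and 4.28 FPKM in No CM, did not pass (log2 fold change 0.19, SE 0.06, limma adjusted p = 0.0714), and neither did XBP1, at 26.4, 27.6 and 27.2 FPKM in Cont CM, against 26.8, 27.9 and 29 FPKM in No CM (log2 fold change -0.04, SE 0.04, limma adjusted p = 0.502).

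HSPA5 and HSP90B1 did not pass in Cont CM against No CM. HSPA5 stood at 201, 262 and 258 FPKM in Cont CM, against 288, 269 and 285 FPKM in No CM (log2 fold change -0.23, SE 0.09, limma adjusted p = 0.112), without overlap, and HSP90B1 at 181, 273 and 245 FPKM in Cont CM, against 290.1, 258 and 265 FPKM in No CM (log2 fold change -0.24, SE 0.13, limma adjusted p = 0.258), with overlap. PDIA4 and PPIB had log2 fold changes of -0.36 and -0.29 and missed the threshold with all libraries (limma adjusted p of 0.0661 and 0.0575). Both were under the threshold without Cont CM replicate 1, with smaller fold changes of -0.19 and -0.17 (limma adjusted p of 0.0145 and 0.0291). That library was left out because ER genes were low in it, which narrows the spread of these same genes. The SE was 0.12 and 0.09 with all libraries and 0.04 for both genes in the fit without it. The calls of that fit are therefore a description of the remaining libraries and not a separate test. Without Cont CM replicate 1, 7 ER genes were called lower, CALR, P4HB, PPIB, PDIA4, SYVN1, TXNDC5 and CRELD2. The 5 called higher were ERO1A, SPCS3, ATF6, FKBP14 and ERN1, and 10.3% and 9.57% of all tested genes were called lower and higher. Groups did not overlap for 14 lower and 11 higher ER genes, against 24.6% and 25.5% of tested genes. ERO1A, for example, was 35.9, 47.2 and 43.7 FPKM in Cont CM and 41.2, 35 and 36.3 FPKM in No CM, with Cont CM replicate 1 below its fellows. FKBP14, a prolyl isomerase, was 5.38, 7.06 and 7.48 FPKM in Cont CM and 6.03, 5.65 and 5.29 FPKM in No CM, and there too Cont CM replicate 1 was the low library.

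The third comparison sets medium from senescent cells against plain medium. In TIS CM against No CM limma called 0 of 39 ER genes, where 0.403% of all tested genes were called higher and 0.453% lower. At an unadjusted p under 0.05, 2 were higher and 0 lower, beside 7.4% and 6.17% of all tested genes, and voom called 0, beside 0.755% and 1.01%. The median log2 fold change was 0.01, against 0.00 over all tested genes, and was -0.04 when FPKM were scaled to equal library sums. SDF2L1 had the largest value, 0.30 with SE 0.08 (limma adjusted p = 0.139), with every TIS CM library above those of No CM. TXNDC5 followed at 0.16 (limma adjusted p = 0.344), also without overlap, and CRELD2 had -0.03. HSP90B1, at 253, 241 and 220.1 FPKM in TIS CM, against 290.1, 258 and 265 FPKM in No CM, had log2 fold change -0.19, SE 0.13, limma adjusted p = 0.592, and HSPA5, at 271, 277 and 265 FPKM in TIS CM, against 288, 269 and 285 FPKM in No CM, had log2 fold change -0.05, SE 0.09, limma adjusted p = 0.868. Over the 39 ER genes 4 were without overlap higher and 3 lower, 10.3% and 7.69%, against 12.7% and 11.6% of tested genes. The TIS CM mean lay between the Cont CM and No CM means for 23 of the 39, 59%, and for 48.2% of all tested genes.

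Other genes of the same pathways were counted in 5 further lists. Of 113 tested genes of folding and glycoprotein quality control, ERAD, translocation with signal peptidase and oligosaccharyltransferase, COPII vesicles, and the EIF2AK3 to ATF4 arm with other regulators, 4 were called higher and 2 lower in TIS CM against Cont CM, 3.54% and 1.77%, beside 2.9% and 1.57% of all tested genes. The 4 higher genes were all on the folding list of 34. They were SERPINH1, the collagen chaperone, 1.28-fold higher (limma adjusted p = 0.0265), LMAN2, a lectin of ER export, 1.22-fold (0.0145), RCN1, a calcium-binding ER protein, and SIL1, an exchange factor of HSPA5. SERPINH1 averaged 44.1 ± 1.56 FPKM in TIS CM, 34.3 ± 3.35 in Cont CM and 45.6 ± 1.93 in No CM (SD, n = 3). The number called changed when 1 library was left out. Each omission also leaves fewer libraries for the test, and the 2 were not told apart. Over the 113 genes, 0 were called higher without TIS CM replicate 1, TIS CM replicate 2 or Cont CM replicate 2, 1 without TIS CM replicate 3 and 6 without Cont CM replicate 1. The lower calls were 0 without any 1 TIS CM library or Cont CM replicate 2, and 1 without No CM replicate 1. Without Cont CM replicate 1, 4 genes of the folding list were called higher, beside 4.85% of all tested genes. The list's median was 0.03 there, against 0.09 with all libraries.

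On the list of translocation, signal peptidase and oligosaccharyltransferase genes, SSR3, a subunit of the translocon-associated complex, was the 1 gene of 25 called lower in TIS CM against Cont CM, 1.18-fold (limma adjusted p = 0.017). It averaged 61.2 ± 2.46 FPKM in TIS CM, 72.5 ± 1.09 in Cont CM and 52 ± 1.36 in No CM, and was called in all 3 comparisons. On that list 1 gene was called higher and 1 lower in TIS CM against Cont CM when Cont CM replicate 1 was left out. Of all tested genes 4.85% and 2.94% were. In Cont CM against No CM its partner SSR4 was called lower and the oligosaccharyltransferase subunit DDOST too, while TRAM1 was called higher, 2 genes each way on that list. In the same comparison the folding list held 3 higher, such as DNAJC25 and TMX3, and 8 lower, led by SERPINH1 and LMAN2. The ERAD list of 21 held UBE2G2 higher and ERLIN2, MAN1B1 and VCP lower, and of 15 COPII genes SEC23B was higher. Over the 113 genes that was 10 higher and 14 lower, 8.85% and 12.4%, against 7.77% and 8.56% of all tested genes. Without Cont CM replicate 1 the folding list held 4 higher and 5 lower, the ERAD list 1 and 4, the translocation list 3 and 2, the COPII list 1 and 0, and the list of the EIF2AK3 to ATF4 arm 4 and 2, beside 9.57% and 10.3% of all tested genes. Over the 113 genes, leaving out 1 library gave 5 to 13 higher and 5 to 13 lower, with 5 higher without No CM replicate 1 or 3 and 5 lower without No CM replicate 3.

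In the arm that leads from EIF2AK3 to ATF4, PPP1R15A, the phosphatase subunit that restores translation, averaged 56.2 ± 2.27 FPKM in TIS CM, 60.7 ± 0.713 in Cont CM and 44.1 ± 1.82 in No CM. It was higher than in No CM in both conditioned media, 1.27-fold in TIS CM (limma adjusted p = 0.0141) and 1.37-fold in Cont CM (0.000324). In TIS CM against No CM, SSR3 and PPP1R15A were the 2 called higher among the 113 genes, 1.77%, and 0 were called lower. Of all tested genes 0.403% and 0.453% were. The number called higher was 0 without TIS CM replicate 1 or 3 or No CM replicate 1 or 3. The stress factor gene ATF3 averaged 1.8 ± 0.0267 FPKM in TIS CM, 2.38 ± 0.123 in Cont CM and 1.85 ± 0.136 in No CM. ATF3 was called lower in TIS CM against Cont CM (limma adjusted p = 0.0331) and higher in Cont CM against No CM (limma adjusted p = 0.0187). ATF4 stood at 83.2, 79 and 77.3 FPKM in TIS CM, 76.5, 84.1 and 79.8 FPKM in Cont CM, and 70.0, 73.2 and 71.7 FPKM in No CM, and was called in Cont CM against No CM (log2 fold change 0.16, SE 0.04, limma adjusted p = 0.041). DDIT3, the pro-death factor CHOP, averaged 6.07 ± 0.275 FPKM in TIS CM, 6.16 ± 0.952 in Cont CM and 5.94 ± 1 in No CM and passed in no comparison (limma adjusted p between 0.818 and 0.962). Of 18 tested genes on this list, 1 was called lower and 0 higher in TIS CM against Cont CM. Of all tested genes 1.57% and 2.9% were. Without Cont CM replicate 1 it was 1 each way, beside 2.94% lower and 4.85% higher of all tested genes. In Cont CM against No CM, 3 genes of the list were called higher and 1 lower, CREB3L2, beside 7.77% and 8.56%.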

How the data were processed

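Messenger RNA was selected from total RNA on poly-T beads and copied from random hexamers, per the labels' protocols, and no source read here states whether counting used strand. The authors deposited a table of FPKM per gene and library. Per the submitters' processing notes, fastp, HISAT2 2.0.5, featureCounts 1.5.0-p3 and DESeq2 1.20.0 were used with hg38. FPKM times gene length gave whole fragments within 0.01. From FPKM, log2(FPKM + 0.5) was fitted with limma 3.58.1 in R 4.3.3 (group means, intensity trend, all 9 libraries) for genes with a mean of at least 0.5 FPKM, with Benjamini-Hochberg adjustment over all 13912 tested genes. The fold changes are on that scale and understate changes of low genes. Groups came from the sample titles. The ER genes and lists were chosen with earlier results of these data known. Genes described by library were those called in any comparison, XBP1, ATF6, ERN1, EIF2AK3, HSPA5 and HSP90B1, with up to 2 called genes per further list, direction and comparison, and ATF4 and DDIT3. PDIA4, PPIB, ERO1A, FKBP14 and SPCS3 were added after their values were seen. The code was tested on simulated data. Promoters came from RefSeq (GRCh38.p14).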

Additional observations from a re-analysis of the deposited data

How the results depend on the processing

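Counts of called ER genes depended on the setting. Among 882 fold changes of named genes in the alternatives, 93 calls were lost and 3 gained. All 93 losses fell on the 4 calls in TIS CM against Cont CM and the 3 higher and 5 lower in Cont CM against No CM. Each of these calls was refitted in 21 alternatives. The call was kept in as few as 5 for EDEM2 in TIS CM against Cont CM, and in all 21 for TXNDC5 in Cont CM against No CM. Called genes kept their sign in these, while uncalled ones such as HSP90B1 (0.05 and, without Cont CM replicate 1, -0.12 in TIS CM against Cont CM) did not always. In TIS CM against Cont CM, the 4 higher calls were 2 without the filter on low values, with equal library sums or with the length trend removed, and 1 with only the 2 groups fitted or with the GC and length trend removed, an alternative chosen after seeing the data. The median there was 0.03337 with equal sums and 0.1002 with the GC and length trend removed. In Cont CM against No CM, the 3 higher calls were 1 without the filter, with equal sums, with only the 2 groups and with the GC and length trend removed, and the 5 lower calls were 8 with equal sums or voom and 2 with only the 2 groups. In TIS CM against No CM the median, 0.0061 as reported, reversed to -0.01074 with quantile normalization and -0.04164 with equal sums. Leaving out 1 library gave 0 to 3 higher and 0 to 1 lower calls in TIS CM against Cont CM, with medians from -0.0009735 (without Cont CM replicate 1) to 0.1073. It gave 0 to 5 higher and 1 to 7 lower calls in Cont CM against No CM, with medians from -0.1056 to -0.03349, and medians from -0.007885 (without No CM replicate 2) to 0.02842 in TIS CM against No CM, with -0.00447 without TIS CM replicate 1. The causes were not tested. Apart from voom and the fit without Cont CM replicate 1, the share of all tested genes called in these settings is not given. The counts of ER genes there cannot be set against it. Over the 113 further ER genes in TIS CM against Cont CM, the 4 higher and 2 lower calls were 0 and 0 with only the 2 groups, 1 and 0 with the block or with the GC and length trend removed, and 2 and 1 without the filter. With the replicate number as a block, 2 ER genes were called higher in TIS CM against Cont CM and 3 lower in Cont CM against No CM. Deviations of same-numbered libraries correlated between -0.187 and 0.0838, so no pairing by number was seen. Libraries with different numbers reached 0.201, so the measure cannot exclude that a number marks a shared batch. Low genes such as DERL3, at 19 to 48 fragments, are limited by depth.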

Other observations

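The cytosolic and mitochondrial heat shock genes, a list of 14 tested genes outside the ER, had 0 calls by limma in TIS CM against Cont CM and in TIS CM against No CM, where 6 and 1 had an unadjusted p under 0.05 and voom also called 0. At that unadjusted p, 12.8% of all tested genes were higher and 10.6% lower in TIS CM against Cont CM. In TIS CM against No CM 7.4% were higher and 6.17% lower. Without Cont CM replicate 1, 1 of the 14 was called lower in TIS CM against Cont CM, beside 2.94% of all tested genes. In Cont CM against No CM, the mitochondrial Hsp70 gene HSPA9 and the cytosolic exchange factor gene HSPA4 were called higher and the co-chaperone gene BAG3 lower, beside 7.77% and 8.56% of all tested genes. Voom called 5 of the 14 in either direction, beside 9.29% of all tested genes higher and 10.1% lower. Limma without Cont CM replicate 1 called 3 higher and 3 lower, beside 9.57% and 10.3%. HSPA9 averaged 62.4 ± 0.235 FPKM in Cont CM and 55.7 ± 1.49 FPKM in No CM (SD, n = 3; limma adjusted p = 0.0095). BAG3 averaged 41.6 ± 1.05 FPKM in Cont CM and 47.2 ± 1.6 FPKM in No CM (limma adjusted p = 0.0101). In Cont CM replicate 1, where the median deviation of the ER genes was -0.15, that of the further ER lists was -0.08 for translocation, -0.07 for folding, -0.05 for COPII, -0.03 for ERAD and 0.00 for the EIF2AK3 to ATF4 arm, and that of the heat shock genes was 0.07.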
